A study of Mus musculus with 12 samples.

Results

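The genes of the major histocompatibility complex (MHC, called H2 in the mouse) and of antigen processing were followed in the liver of mice with chemically induced colitis. Members were the rows of the gene table whose annotated symbol begins with H2- or is B2m, Tap1, Tap2, Tapbp, Psmb8, Psmb9, Psmb10, Nlrc5, Ciita or Cd74, and whose counts are above 0 in at least 1 library. The rule used names and presence, not any difference between groups, and it left 22 of the 51609 rows. These are 12 class I genes (7 heavy chains and 5 genes of processing and assembly), 9 class II genes and H2-Ke2, a prefoldin subunit named only for its place in the MHC region. Of the 54 annotation entries that fit the names, 9 have a row with 0 counts in all libraries and 23 have no row. H2-K1, H2-D1, the H2-Q genes, H2-T22, H2-T23, H2-DMb1, H2-DMb2, Tapbp, Psmb9, Nlrc5 and Cd74 belong to the last set and were not analysed here, so the class I heavy chains below are non-classical ones only.

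Liver RNA of 12 mice on the C57BL/6 background, in 4 groups of 3 mice aged 5 to 7 weeks, was depleted of rRNA and sequenced. The wild-type (WT) mice were littermates without Cre that carried floxed alleles, and the mice labelled Rela and Stat3 knockout (RelaΔhepStat3Δhep, KO below) carried floxed Rela and Stat3 with Cre under the albumin promoter, which is active in hepatocytes. Other liver cells of the KO mice therefore keep both genes. Mice of each genotype drank either plain water (untreated) or water with 2% dextran sodium sulfate (DSS), which injures the colon, for 6 days. The comparisons ask how these genes respond to colitis in each genotype, and whether the genotypes differ without and with DSS.

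Class I molecules consist of a heavy chain and the light chain B2m, and they show peptides from inside the cell to CD8+ T cells on nearly all nucleated cells. The peptides are cut by the proteasome, whose catalytic subunits Psmb8, Psmb9 and Psmb10 replace the constitutive ones in the immunoproteasome, and are carried into the endoplasmic reticulum by the transporter Tap1/Tap2. Class II molecules are heterodimers of an alpha and a beta chain that show peptides taken up from outside to CD4+ T cells, and are normally made by dendritic cells, B cells and macrophages rather than by hepatocytes. Their genes are switched on by the transactivator Ciita, which acts through factors bound to the X and Y boxes of class II promoters. In bulk RNA, more cells of a type and more RNA per cell cannot be told apart.

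Promoter sequence was matched for 15 of the 22 members in RefSeq (GRCm38.p6, a later build than that of the counts). The 250 bases before each start were searched on both strands for the interferon-stimulated response element core (GAAA, any 2 bases, GAAA), the STAT element (GAS) TTCNNNGAA, the kappa-B site by its name, and the Y box core CCAAT, which reads ATTGG on the opposite strand. Over all 32851 promoters of the table these are present in 2.98%, 7.02%, 3.9% and 33.8%. The 150 bases before the start are shown for 6 members because they let the class I processing genes be set beside class II genes, with every match in capitals.

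Tap1, chr17:34187406-34187555 (plus strand): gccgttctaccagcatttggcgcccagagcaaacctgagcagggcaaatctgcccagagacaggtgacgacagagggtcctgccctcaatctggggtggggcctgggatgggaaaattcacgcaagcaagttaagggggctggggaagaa
Psmb8, chr17:34198045-34198194 (plus strand): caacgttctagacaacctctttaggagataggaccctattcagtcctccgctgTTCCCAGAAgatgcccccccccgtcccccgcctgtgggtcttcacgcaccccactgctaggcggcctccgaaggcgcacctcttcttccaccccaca
B2m, chr2:122147537-122147686 (plus strand): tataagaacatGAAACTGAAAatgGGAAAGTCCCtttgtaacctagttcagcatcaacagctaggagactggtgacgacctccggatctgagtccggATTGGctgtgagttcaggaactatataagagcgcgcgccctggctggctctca
H2-Aa, chr17:34287824-34287973 (minus strand): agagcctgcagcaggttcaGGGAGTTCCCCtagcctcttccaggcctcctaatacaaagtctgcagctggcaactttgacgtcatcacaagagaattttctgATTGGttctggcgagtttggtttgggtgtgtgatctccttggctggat
H2-Eb1, chr17:34305717-34305866 (plus strand): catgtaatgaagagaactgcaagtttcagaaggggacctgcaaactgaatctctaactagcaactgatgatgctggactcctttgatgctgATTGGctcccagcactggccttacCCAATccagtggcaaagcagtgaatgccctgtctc
H2-Ob, chr17:34238755-34238904 (plus strand): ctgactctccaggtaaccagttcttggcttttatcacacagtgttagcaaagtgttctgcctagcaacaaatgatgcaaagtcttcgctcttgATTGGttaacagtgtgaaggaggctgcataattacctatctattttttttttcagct

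All sequences run 5′ to 3′ on the gene's strand and end at the base before the start. B2m holds the response element core GAAACTGAAA at −139 to −130, then a kappa-B site at −126 to −117 and a reversed Y box at −53 to −49. Psmb8 has the GAS motif TTCCCAGAA at −97 to −89. Tap1 shows no match in this stretch and 1 Y box farther out, at −222 to −218, and Psmb10 has no match in its 250 bases. Of 6 class II members with an entry, 5 hold the Y box core at each listed start and H2-DMa only at the second of 2 starts (−198 to −194), and the matches include H2-Aa at −48 to −44, H2-Eb1 at −59 to −55 and at −35 to −31, H2-Ob at −57 to −53 and H2-Oa at −43 to −39. H2-Aa also carries overlapping kappa-B matches from −131 to −121. The Y box core was not limited to class II, as 3 of 4 class I heavy chains and 2 of 4 processing genes with an entry hold it. Among these 4 heavy chains 2 have a kappa-B match and 1 the GAS motif. Matches are letters only and say nothing of binding.

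The libraries held between 65879529 and 82850098 counts, and values are given as counts-per-million of the TMM-scaled library size (CPM). Of the 22 members, 18 passed the filter on low counts, and the other 4 (H2-T3, H2-M10.6, H2-M6-ps and H2-Eb2) reached at most 17 counts in any library. Rela was at 45.5, 54.5 and 41.2 CPM in the untreated WT libraries, 41.1, 39.8 and 55.5 in WT with DSS, 42.8, 43.8 and 51.4 in untreated KO and 39.5, 62.3 and 46.4 in KO with DSS. Stat3 was at 45.7, 138 and 87.6 CPM, at 63.2, 330 and 307, at 45.9, 46.7 and 49.7 and at 43.0, 58.0 and 74.8 in the same order. Whole-gene counts of Rela thus do not mark the libraries labelled KO. In 2 libraries labelled WT, Stat3 goes against the label: that of WT untreated replicate 1 was just below the lowest untreated KO library and that of WT DSS replicate 1 was within the KO DSS range, while the other 4 WT libraries were above all KO libraries. WT and KO stand for the labels throughout. For the members, edgeR calls in comparisons that rest on these 2 libraries are given with and without them. That choice was made after seeing the data, and values of the marker and other gene lists are given with them only. Hepatocyte markers (4 of 5 with a row) summed to 77671 and 79831 CPM in WT DSS replicates 2 and 3, which stand apart. The sum was 132102 in WT DSS replicate 1 and between 109679 and 165471 in the other libraries. Most of each sum was Alb, at 62894 to 110567 CPM in WT with DSS and 93686 to 109200 in untreated WT. Apoa1 went the other way, at 5731 to 8896 CPM in WT with DSS against 3823 to 5573 in untreated WT. For DSS in WT, 3 of the 4 markers had a negative log2 fold change and 1 a positive one. Xist exceeded 100 CPM in all 3 KO DSS libraries and in WT untreated replicate 3 and in no other, so that sex-linked transcripts cannot be told apart from DSS in KO mice or from genotype among DSS-treated mice. Replicates are separate mice, and p-values measure the spread between them.

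B2m was the highest member per length in each group, at 1542 ± 225 CPM per kb of exon (SD, n = 3) in untreated WT and 2031 ± 76.1 in KO with DSS. Psmb10 followed at 20.04 ± 0.829 in untreated WT, where H2-Ab1 stood at 18.1 ± 13.97, Psmb8 at 13.4 ± 2.57 and H2-Aa at 11.95 ± 9.82. The wide spread of H2-Ab1 and H2-Aa covers the means of their neighbours in this order, whereas the libraries of Psmb10 and Psmb8 do not overlap. Tap2 was at 9.02 ± 1.503, Tap1 at 4.73 ± 0.903, H2-DMa at 2.82 ± 1.85 and H2-T24 at 2.21 ± 0.498 CPM per kb in the same group. Ciita was at 0.596 ± 0.413. The level order was similar in KO with DSS, where Psmb10 was again next after B2m, followed by H2-Ab1, Psmb8 and H2-Aa.

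**Figure D1:**
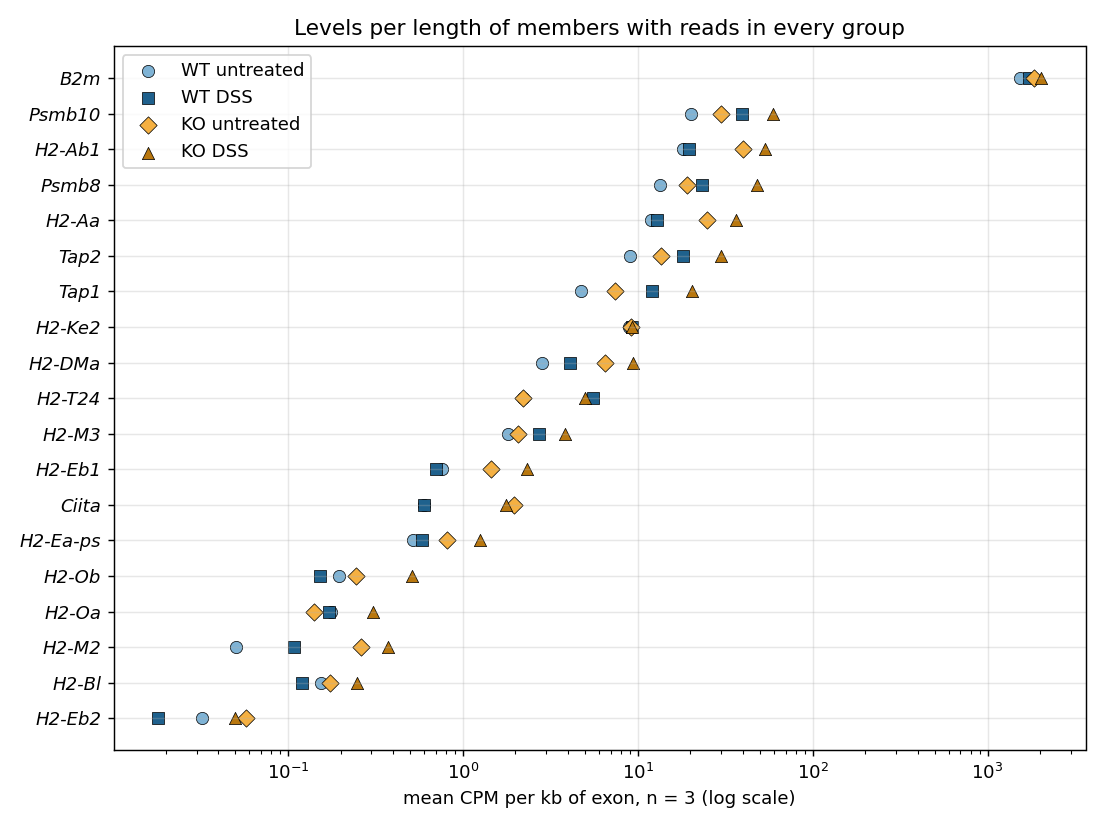
Mean level of 19 members in CPM per kb of exon (log axis), with 1 symbol for each of the 4 groups of 3 livers; the 3 members with no counts in at least 1 group are left out. B2m stands far to the right in every group, and the class I processing genes and the class II pair H2-Ab1 and H2-Aa follow. H2-Ke2 lies above Tap1 in both untreated groups. Most members have their highest mean in KO with DSS.

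Class I processing genes formed the clearest response. In KO livers Tap1, Psmb8 and Tap2 were higher with DSS, and these were the only members past the threshold in any comparison of the 12 libraries. This is 3 of 9 tested class I members, all higher, where 7.02% of the 17652 tested genes passed in either direction and 4.57% were higher (edgeR quasi-likelihood test, Benjamini-Hochberg adjusted p under 0.05). In WT mice none of the 9 passed (0.685% of all genes did, 0.453% with a rise). The median log2 fold change over the 9 was 0.98 in each genotype, against a median over all genes of 0.02 in WT and −0.01 in KO. The WT median shifted when single libraries were left out, and its range is given at the end. The change was positive for 8 of 9 in WT (52.2% of all genes) and 9 of 9 in KO (49.4%).

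Tap1 (chr17:34324498-34334170 in mm9), a subunit of the peptide transporter, measured 31.2, 25.1 and 21.4 CPM in the untreated WT livers and 99.0, 36.9 and 61.3 with DSS. In KO livers it was at 43.2, 30.2 and 47.8 untreated and at 88.3, 124 and 122 with DSS. The treated and untreated libraries did not overlap in either genotype, and WT DSS replicate 1 stood well above the other treated WT livers. The log2 fold change was 1.46 ± 0.31 (SE) in KO (edgeR adjusted p = 0.0170) and 1.34 ± 0.31 in WT (adjusted p = 0.0720).

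Tap2 (chr17:34340472-34353266), the partner subunit, was at 39.2, 35.1 and 28.0 CPM in untreated WT and at 101, 49.8 and 55.3 with DSS. KO livers gave 48.4, 45.8 and 60.8 untreated and 78.6, 159 and 101 with DSS. Again the treated livers all exceeded the untreated ones within each genotype. The log2 fold change was 1.13 ± 0.29 in KO (edgeR adjusted p = 0.0406) and 1.01 ± 0.29 in WT (adjusted p = 0.133).

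Psmb8 (chr17:34334666-34338399), an immunoproteasome subunit encoded between Tap1 and Tap2, was at 44.3, 30.4 and 35.3 CPM in untreated WT and at 97.7, 44.4 and 49.1 with DSS. The lowest treated WT liver was thus almost level with the highest untreated one. In KO livers Psmb8 was at 49.5, 43.3 and 64.4 untreated and at 116, 169 and 107 with DSS, with a wide gap between the groups. The log2 fold change was 1.32 ± 0.29 in KO (edgeR adjusted p = 0.0213) and 0.80 ± 0.29 in WT (adjusted p = 0.228).

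Psmb10 (chr8:108459628-108462292), an immunoproteasome subunit encoded outside the MHC, was at 25.0, 26.7 and 24.7 CPM in untreated WT and at 79.7, 31.5 and 39.2 with DSS. In KO it was at 32.8, 38.4 and 42.9 untreated and at 65.2, 96.9 and 63.0 with DSS. No treated liver overlapped the untreated ones of its genotype, but the adjusted p of edgeR was 0.140 in WT and 0.0605 in KO, with a log2 fold change of 0.98 ± 0.29 in both.

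B2m (chr2:121973422-121978819) moved far less than its processing partners. Untreated WT livers had 1537, 1285 and 1156 CPM and treated ones 1597, 1504 and 1339. KO livers had 1776, 1605 and 1391 untreated and 1671, 1792 and 1775 with DSS. The groups overlapped, and the log2 fold change with DSS was 0.16 ± 0.18 in WT (edgeR adjusted p = 0.751) and 0.13 ± 0.18 in KO (adjusted p = 0.692). Its highest library exceeded its lowest by 1.55-fold over the 12, against 5.77-fold for Tap1, 5.68-fold for Tap2, 5.57-fold for Psmb8 and 3.92-fold for Psmb10.

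**Figure D2:**
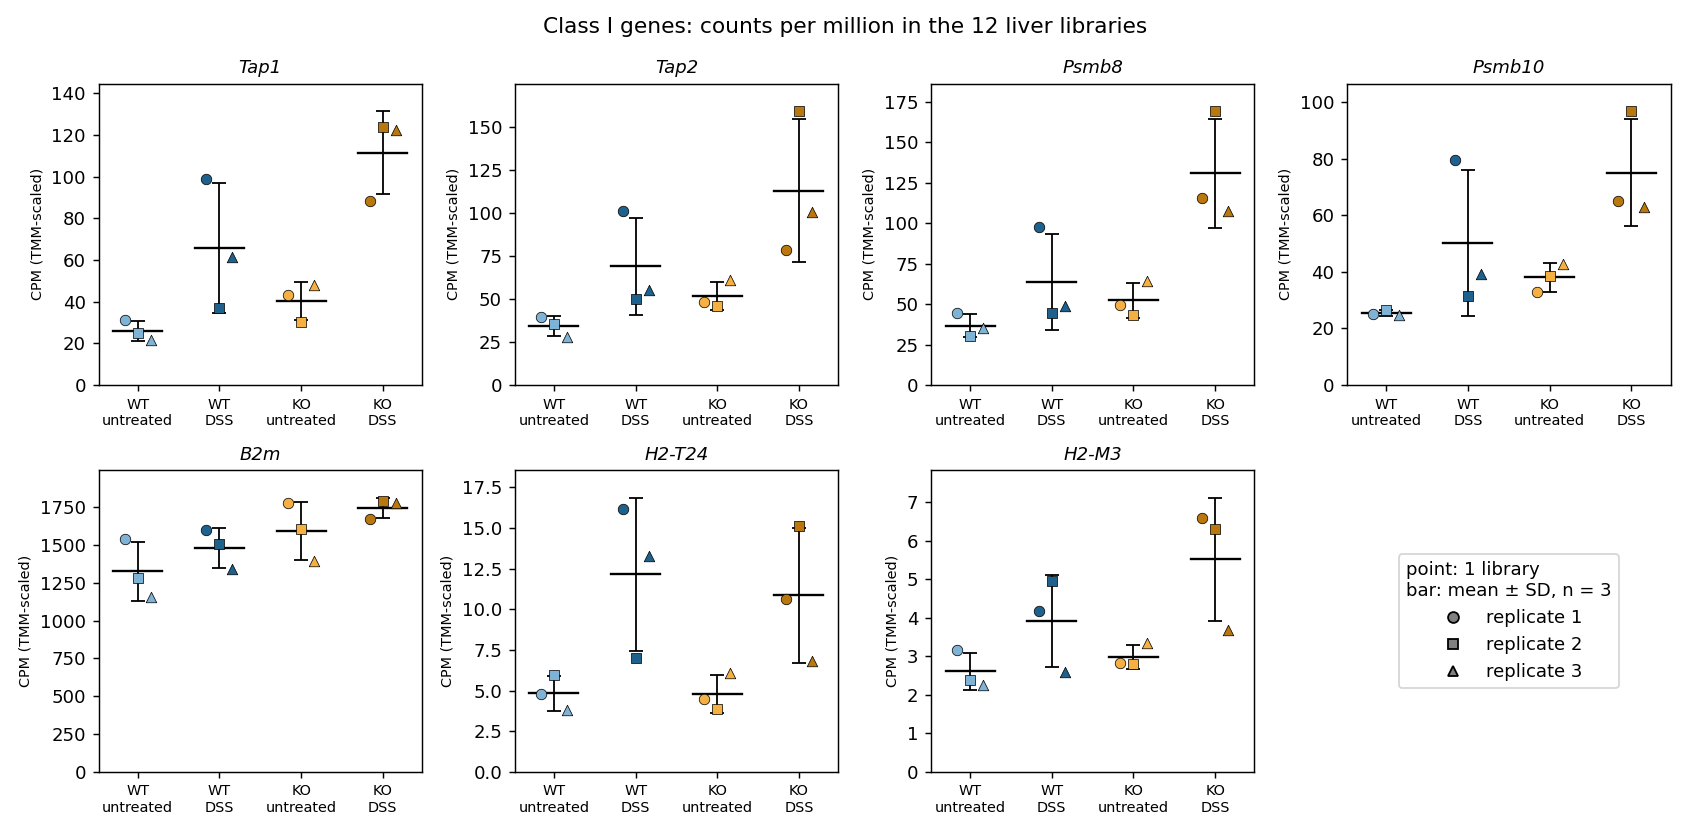
CPM (TMM-scaled, linear axes from 0) of 5 class I processing genes and 2 class I heavy chains; points are libraries, shapes replicate numbers, bars the mean ± SD of 3. Treated livers lie above untreated ones of their genotype for Tap1, Tap2, Psmb8, Psmb10 and H2-T24, with WT DSS replicate 1 and KO DSS replicate 2 as the highest treated libraries of the first 4, whereas B2m overlaps between treated and untreated.

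The highest treated liver was shared among the processing genes, but not the full order of livers. WT DSS replicate 1 was the highest WT DSS library for 5 of 5 of them, and KO DSS replicate 2 the highest KO DSS library for 5 of 5. Among untreated livers, WT replicate 1 and KO replicate 3 were each the highest of their group for 4 of 5. The ratio of Tap2 to Tap1 per kb stayed between 1.193 and 2.199 over the 12 libraries (median 1.83), and that of Psmb10 to Psmb8 between 1.21 and 1.91 (median 1.47). Tap1, Psmb8 and Tap2 lie side by side on chromosome 17, while Psmb10 and B2m lie on other chromosomes. Each of the 5 is overlapped in the annotation by a gene on the opposite strand (Tap1 by Psmb9 at its 5′ end, B2m by Patl2 over its whole length), and strand use in counting is not given in the sources used here.

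The genotypes' responses were also compared directly. None of 9 class I members passed the interaction test, the DSS response of KO minus that of WT, with 0 under an unadjusted p of 0.05 in edgeR and 0 in DESeq2. Of all genes 0.408% passed it, 8.83% had a positive interaction under an unadjusted p of 0.05 and DESeq2 called 4.5%. The interaction of Psmb8 was 0.52 ± 0.41 (edgeR adjusted p = 0.547), that of Tap1 0.12 and that of Tap2 0.11 on the log2 scale.

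Leaving out single libraries ended calls in KO while the log2 fold changes stayed at 1.295 to 1.385 for Tap1, 1.09 to 1.38 for Psmb8 and 0.80 to 1.26 for Tap2 in those fits. Tap1 lost its call without KO untreated replicate 2 (edgeR adjusted p = 0.0829) or KO DSS replicate 2 (0.0521), and Psmb8 without either of these (0.0983 and 0.0668), without KO untreated replicate 1 (0.0669) or without KO DSS replicate 1 (0.0644). Tap2 lost it without the filter on low counts (edgeR adjusted p = 0.0663) and with a block for replicate number (0.0652). Its call also went without WT untreated replicate 1 (0.0514) or 2 (0.0564), KO untreated replicate 1 (0.107), 2 (0.146) or 3 (0.0768), or KO DSS replicate 2 (0.117) or 3 (0.0616). Calls over all genes fell as well, from 1240 to 241 without KO untreated replicate 2 and to 748 without KO DSS replicate 2. With high Xist (over 100 CPM) as a sex covariate the log2 fold changes in KO were 1.86 for Tap1, 1.40 for Psmb8 and 1.54 for Tap2, all short of the threshold (edgeR adjusted p = 0.306, 0.403 and 0.352), the standard errors of the members grew 1.88-fold at the median, and 4 of all genes were called. That covariate turns on WT untreated replicate 3, where Xist (1143 CPM) and the Y-linked Ddx3y (14.3 CPM) were both present, against 89.4 to 125 CPM of Ddx3y in the libraries without high Xist and at most 0.0838 in KO with DSS.

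Markers of leukocytes were measured in the same libraries. The sum of 4 general leukocyte markers was 48.2 to 87.5 CPM in untreated WT, 62.4 to 108 in WT with DSS, 55.0 to 63.7 in untreated KO and 99.0 to 152 in KO with DSS. In edgeR 2 of the 4 rose in KO with DSS, where 4.57% of all genes did. The 6 Kupffer cell markers (resident liver macrophages) summed to 229 to 485 CPM in untreated WT, 371 to 831 in WT with DSS, 277 to 307 in untreated KO and 565 to 920 in KO with DSS, where 5 of the 6 rose (4.57% of all genes). The highest WT DSS library for this sum was replicate 2. Monocyte markers (3 of 4 with a row) summed to 46.7 to 65.0 CPM in untreated WT, 54.7 to 107 in WT with DSS, 44.1 to 70.8 in untreated KO and 128 to 245 in KO with DSS, where 1 of the 3 rose (4.57% of all genes). The 4 neutrophil markers summed to 1.69 to 3.15 CPM in untreated WT, to 4.68, 83.9 and 2.204 in WT with DSS, to 0.345 to 0.572 in untreated KO and to 5.91 to 21.7 in KO with DSS, with none of 3 tested past the threshold. The 6 T and NK cell markers summed to 3.17 to 7.52 CPM in untreated WT, 2.03 to 4.50 in WT with DSS, 3.93 to 5.91 in untreated KO and 6.10 to 10.2 in KO with DSS, with 5 of 6 negative for DSS in WT and 5 of 6 positive in KO, none past the threshold. The part of these cells in the class I values was not tested.

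Among the class I heavy chains, H2-T24 (chr17:36142640-36157505), a non-classical gene, came nearest to the threshold. It was at 4.76, 5.95 and 3.77 CPM in untreated WT and at 16.2, 6.97 and 13.3 with DSS. KO livers had 4.45, 3.84 and 6.10 untreated and 10.7, 15.1 and 6.80 with DSS. The groups did not overlap in either genotype, with a log2 fold change of 1.33 ± 0.34 in WT (edgeR adjusted p = 0.0930) and 1.18 ± 0.34 in KO (adjusted p = 0.0551). Non-coding transcripts are annotated on the opposite strand across the whole of this gene, so its reads cannot be told apart from theirs without strand.

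H2-M3 (chr17:37407165-37411429), which presents N-formylated peptides of bacterial or mitochondrial origin, was at 3.16, 2.39 and 2.26 CPM in untreated WT and at 4.16, 4.95 and 2.60 with DSS. In KO it was at 2.82, 2.79 and 3.35 untreated and at 6.58, 6.30 and 3.69 with DSS, without overlap. The log2 fold change was 0.58 ± 0.28 in WT (edgeR adjusted p = 0.354) and 0.89 ± 0.28 in KO (adjusted p = 0.0704). H2-Bl ran from 0.111 to 0.565 CPM and H2-M2 from 0 to 1.14 CPM over the libraries, too low for a change to be read. H2 heavy chains form a family of near-identical copies, between which the counting could split reads.

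Without overlap, 5 of the 9 tested class I members were higher with DSS in WT and 6 in KO, where 9.49% and 17.8% of all genes were. An exact permutation test of 3 livers against 3 gives at least p = 0.1 (two-sided), which each of these members reached. At an unadjusted p under 0.05 in edgeR there were 5 of 9 higher in WT (8.36% of all genes were) and 6 of 9 in KO (14%), and the DESeq2 Wald test called 4 in WT (H2-T24, Tap1, Tap2 and Psmb10, where it called 5.95% of all genes) and 6 in KO (14.4%).

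Between genotypes, class I members stood mostly higher in KO without passing the test. In untreated livers 8 of 9 had a positive log2 fold change (median 0.52, where 50.2% of all genes were positive). None was called (0.0623% of all genes were), none had an unadjusted p under 0.05 in edgeR and DESeq2 called none (2.31% of all genes). With DSS the median was 0.71, again with 8 of 9 positive (49.7% of all genes). None was called in edgeR (0.334% of all genes were), 3 were higher with an unadjusted p under 0.05 (7.18% of all genes), and DESeq2 called 1, Psmb8 (3.4% of all genes). Psmb8 was the nearest, with a log2 fold change of 1.04 ± 0.29 (edgeR adjusted p = 0.153), and Tap1 followed with 0.76 ± 0.30 (adjusted p = 0.296). Without WT DSS replicate 1, the treated WT liver with the highest processing genes and with Stat3 at the KO level (63.2 CPM), edgeR called 3 (Psmb8, Psmb10 and Tap1, adjusted p = 0.0121, 0.0203 and 0.0446). Their log2 fold changes were then 1.49, 1.09 and 1.18, against 1.04, 0.58 and 0.76 with all libraries. The liver left out was the highest treated WT one for 5 of 5 processing genes, so leaving it out raises these differences by construction. The calls over all genes went from 59 to 392. Without both WT libraries in which Stat3 goes against the label, it called the same 3 genes (adjusted p = 0.0133, 0.0309 and 0.0489), with 325 calls over all genes, and for DSS in KO it called Psmb10 (adjusted p = 0.0143) beside Tap1, Psmb8 and Tap2. WT DSS replicates 2 and 3, which then stand alone for treated WT, are the libraries with the lowest hepatocyte marker sums, which are mostly Alb. The part of this in the difference was not tested.

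**Figure D3:**
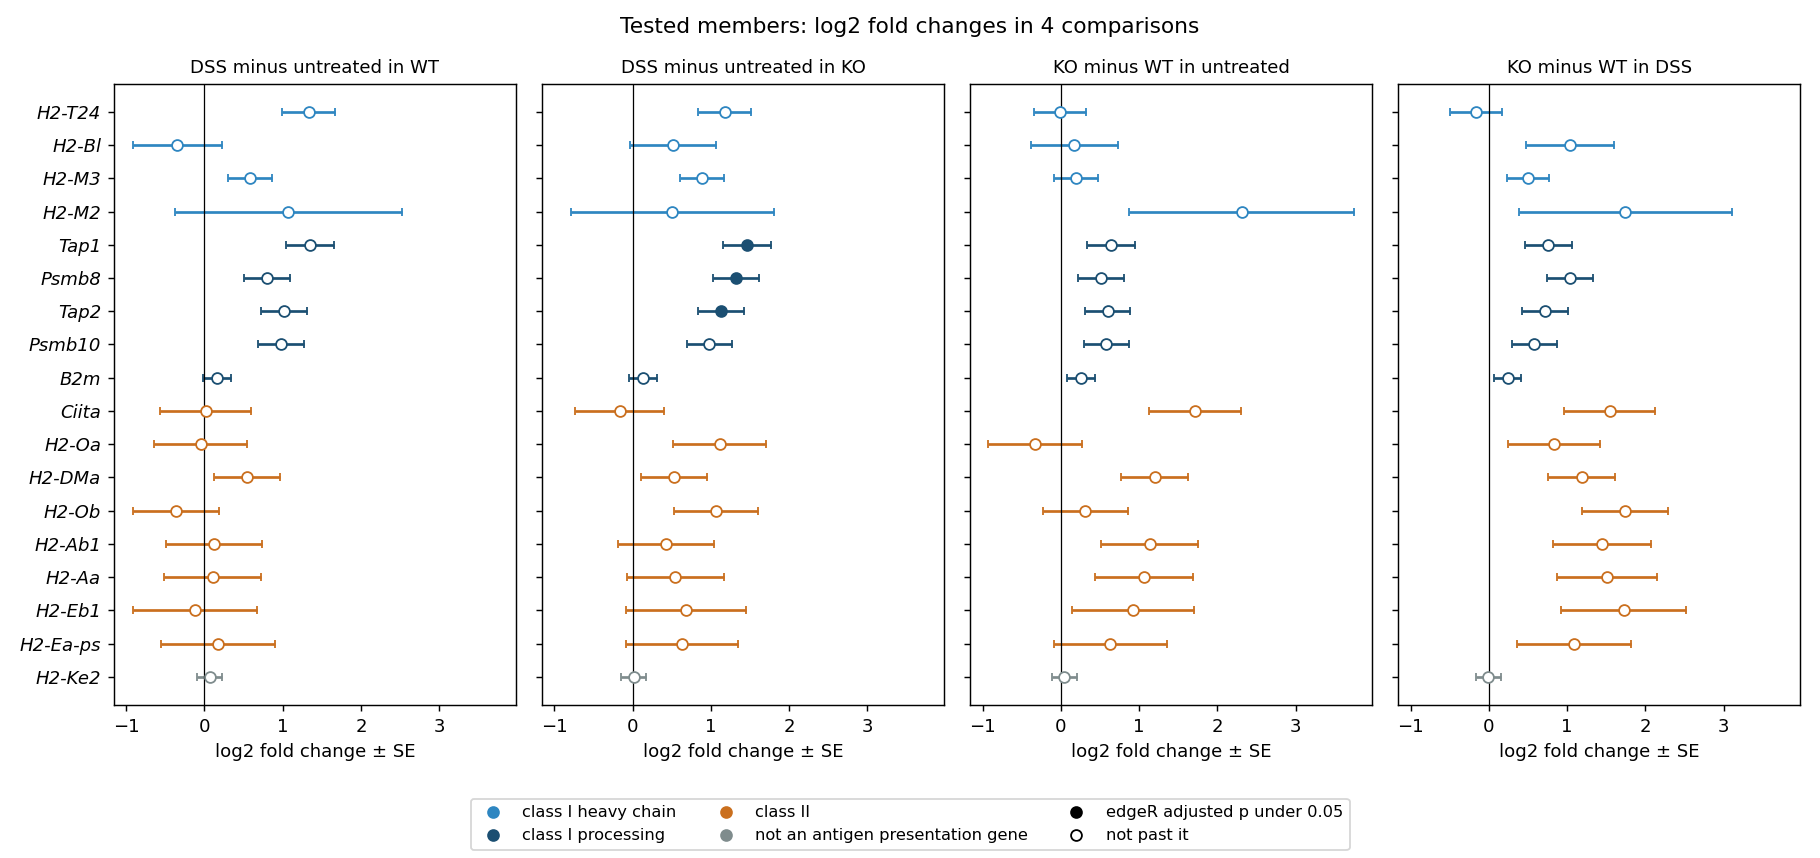
Log2 fold change ± SE of the 18 tested members in 4 comparisons, from 1 edgeR model of the 12 libraries; filled points have an adjusted p under 0.05. The only filled points are Tap1, Psmb8 and Tap2 for DSS in KO, class II members lie on both sides of 0 for DSS in WT (−0.36 for H2-Ob to 0.54 for H2-DMa), and most lie to the right in both comparisons of KO with WT, with long error bars.

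Most class II genes had a positive log2 fold change of KO over WT, but no class II member passed the threshold in any comparison of the 12 libraries. Some passed once the 2 WT libraries with Stat3 at the KO level were left out, with values given after the single genes. With DSS in WT the median of the 8 tested members was 0.06 (log2), with 5 higher (52.2% of all genes) and 3 lower. At an unadjusted p under 0.05 in edgeR there were 0 (8.36% of all genes were higher), and DESeq2 called none (5.95%). In KO the median was 0.59, with 7 higher (49.4%), 0 under an unadjusted p of 0.05 in edgeR (14% higher) and none called by DESeq2 (14.4%). For KO against WT it was 0.99 in untreated livers, with 7 of 8 higher (50.2% of all genes), 2 of them under an unadjusted p of 0.05 in edgeR (5.44%) and 1 called by DESeq2, Ciita (2.31%). With DSS it was 1.48, with all 8 tested members higher (49.7% of all genes), 5 of them under an unadjusted p of 0.05 in edgeR (7.18%) and none called by DESeq2 (3.4%). All 3 KO livers and no WT liver of this contrast had high Xist, so its class I and class II differences cannot be told apart from sex-linked ones. Libraries did not overlap for 2 of the 8 in untreated livers and for 5 with DSS, where 9.56% and 8.8% of all genes were higher in KO without overlap.

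H2-Ab1 (chr17:34400154-34406363), the beta chain of the I-A molecule, was at 56.0, 13.1 and 20.3 CPM in untreated WT and at 63.6, 15.4 and 18.3 in WT with DSS. In each of these groups replicate 1 lay within or just below the KO livers of the same treatment, while the other two were well below. Untreated KO livers had 75.3, 52.1 and 68.7 and KO livers with DSS 112, 82.7 and 69.9. The log2 fold change of KO over WT was 1.13 ± 0.62 untreated (edgeR adjusted p = 0.510) and 1.44 ± 0.62 with DSS (adjusted p = 0.335).

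H2-Aa (chr17:34406276-34424772), the alpha chain of I-A, followed the same order, with 45.9, 9.18 and 16.1 CPM in untreated WT and 47.3, 13.9 and 15.2 with DSS. KO livers had 56.4, 41.2 and 51.2 untreated and 105, 64.1 and 48.5 with DSS. The log2 fold change of KO over WT was 1.06 ± 0.63 untreated (edgeR adjusted p = 0.545) and 1.51 ± 0.64 with DSS (adjusted p = 0.326). Over the 12 libraries H2-Aa varied 11.4-fold and H2-Ab1 8.57-fold, yet their ratio per kb, H2-Ab1 over H2-Aa, stayed between 1.29 and 1.74 (median 1.54). The 3′ ends of this convergent gene pair overlap by 88 bases.

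H2-Eb1 (chr17:34442828-34453144), the beta chain of I-E, was low, at 1.79, 0.191 and 0.739 CPM in untreated WT and 1.76, 0.509 and 0.237 with DSS. It was at 1.67, 1.104 and 2.39 in untreated KO and at 3.44, 3.52 and 1.36 in KO with DSS, and its log2 fold change of KO over WT with DSS was 1.72 ± 0.80 (edgeR adjusted p = 0.356). Its alpha chain partner, inactive in the b haplotype of C57BL/6 and annotated as the pseudogene H2-Ea-ps, ran from 0.0905 to 1.74 CPM.

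Ciita (chr16:10480237-10527657), the class II transactivator, had the largest difference between genotypes among class II members in untreated livers. It was at 6.62, 1.78 and 2.72 CPM in untreated WT and at 11.3, 8.86 and 16.5 in untreated KO, without overlap (log2 fold change 1.72 ± 0.59, edgeR adjusted p = 0.317). With DSS it was at 7.13, 1.69 and 2.40 in WT and at 14.3, 10.1 and 8.31 in KO, again without overlap (1.54 ± 0.59, adjusted p = 0.280). With DSS its log2 fold change was 0.01 in WT and −0.16 ± 0.57 in KO (edgeR adjusted p = 0.897). DESeq2 called the untreated difference (log2 fold change 1.76, adjusted p = 0.0333), and edgeR called the one with DSS when WT DSS replicate 1 was left out (2.42, adjusted p = 0.0480).

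H2-DMa (chr17:34272127-34276046), the alpha chain of the peptide exchange factor H2-DM, was at 8.13, 2.84 and 2.93 CPM in untreated WT and at 10.3, 8.32 and 13.3 in untreated KO. With DSS it was at 9.89, 5.49 and 4.88 in WT and at 17.8, 18.2 and 10.1 in KO. The KO livers exceeded the WT livers in both states, the gap from the nearest WT liver being small, and the log2 fold change was 1.20 ± 0.43 untreated (edgeR adjusted p = 0.331) and 1.18 ± 0.43 with DSS (adjusted p = 0.250).

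The subunits of H2-O, which restrains H2-DM and is characteristic of B cells, were both low. H2-Ob (chr17:34375848-34390850) was at 0.987, 0.560 and 0.347 CPM in untreated WT, 0.797, 0.350 and 0.325 in WT with DSS, 0.731, 0.497 and 1.13 in untreated KO and 2.85, 1.03 and 1.06 in KO with DSS. Its log2 fold change of KO over WT with DSS, 1.74 ± 0.55 (edgeR adjusted p = 0.195), was the largest of the tested class II members, and 1 liver, KO DSS replicate 1, held the highest value. H2-Oa (chr17:34229285-34232179) ran from 0.109 to 0.656 CPM.

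**Figure D4:**
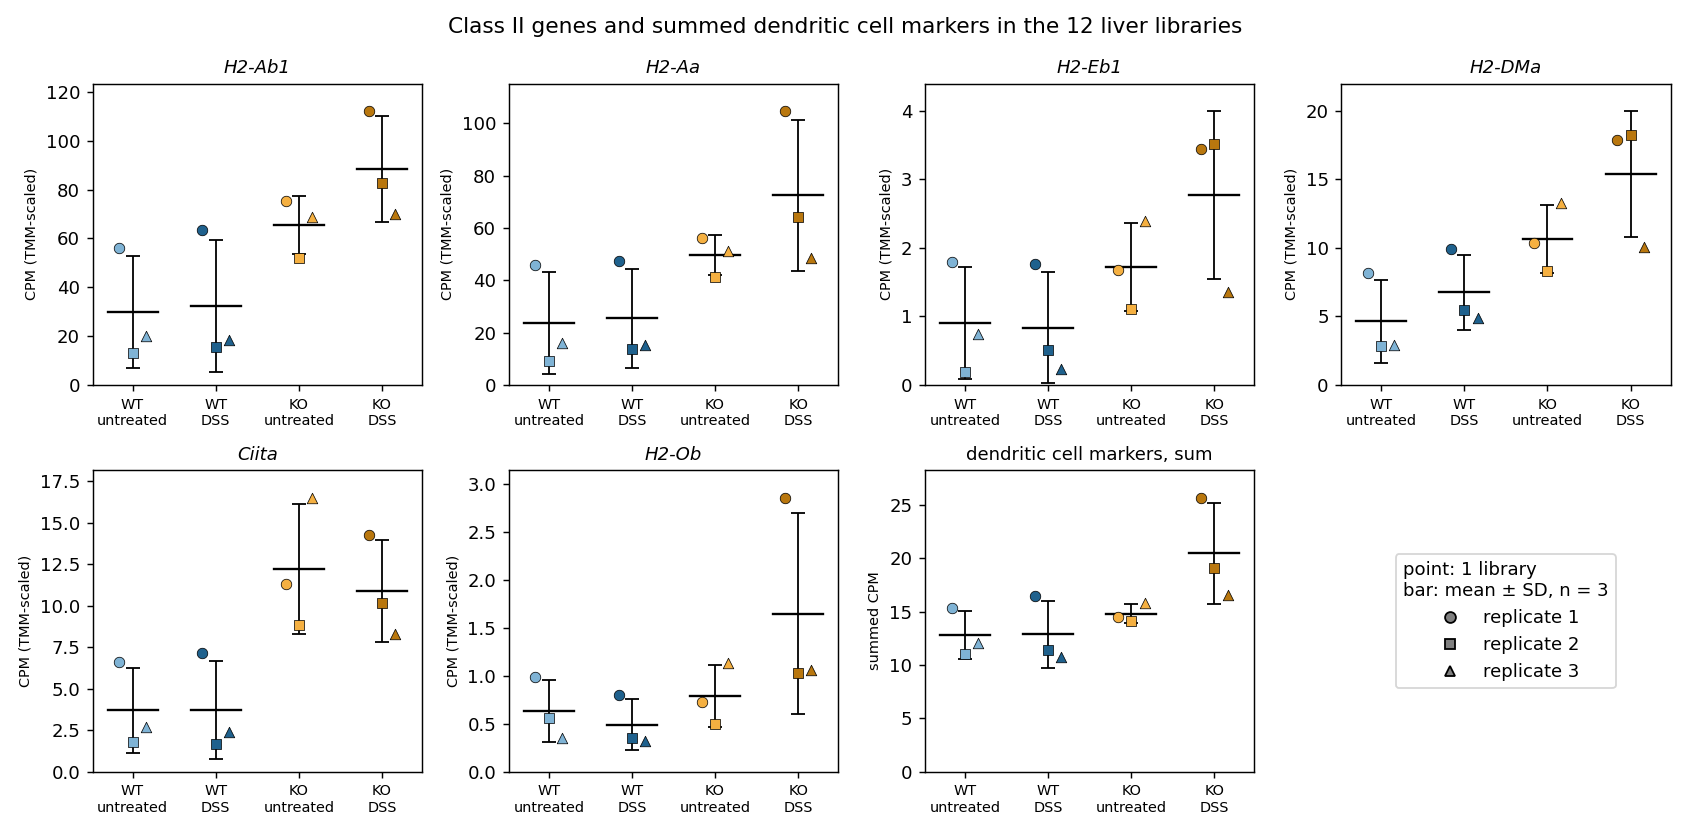
CPM (TMM-scaled, linear axes from 0) of 6 class II genes, and the summed level of 6 dendritic cell markers, of which Zbtb46 is the largest part. Points are libraries, shapes replicate numbers, bars the mean ± SD of 3. Replicate 1 is the highest WT library for every gene shown in both WT groups, within the KO range for some (H2-Ab1 untreated) and below it for others (Ciita), and the marker sum has its highest library in KO DSS replicate 1, as H2-Ab1, H2-Aa and H2-Ob do, while Ciita is highest in KO untreated replicate 3.

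Class II genes also shared their highest WT livers, the same 2 in which Stat3 (45.7 and 63.2 CPM, against 87.6 to 330 in the other WT livers) goes against the WT label. WT untreated replicate 1 was the highest untreated WT library for 8 of 8 tested class II members, and WT DSS replicate 1 the highest treated WT library for 7 of 8. KO DSS replicate 1 was the highest of its group for 6 of 8 and KO untreated replicate 3 for 5 of 8. Leaving out WT DSS replicate 1 took the median of KO over WT with DSS from 1.48 to 2.28, and leaving out WT untreated replicate 1 took that of untreated livers from 0.99 to 1.88. The median for DSS in WT became −0.82 without WT DSS replicate 1 and 0.85 without WT untreated replicate 1, so its sign depends on these livers. With both left out, the medians of KO over WT were 1.88 untreated and 2.28 with DSS. In untreated livers edgeR then called H2-Ab1 (log2 fold change 1.97, adjusted p = 0.0242), Ciita (2.44, adjusted p = 0.0326) and H2-DMa (1.88, adjusted p = 0.0480), with 17 calls over all genes. With DSS it called H2-Ab1 (2.39, adjusted p = 0.00269), Ciita (2.42, adjusted p = 0.00878), H2-Aa (2.32, adjusted p = 0.0123) and H2-DMa (1.57, adjusted p = 0.0229), with 325 over all genes. The livers left out were also the highest of their groups for 8 and 7 of the 8 class II members, so leaving them out raises these differences by construction. Without both, no member was called for DSS in WT (medians 0.70 for class I and 0.01 for class II, with 93 calls over all genes) or in the interaction (0.39 and 0.34, with 73), and no class I member for KO over WT untreated (0.56).

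Markers of the cells that make class II varied in part with these values. The 6 dendritic cell markers with a row (of 7) summed to 15.4, 11.03 and 12.02 CPM in untreated WT, 16.5, 11.4 and 10.8 in WT with DSS, 14.5, 14.1 and 15.8 in untreated KO and 25.7, 19.1 and 16.6 in KO with DSS. The largest part of this sum was Zbtb46, with means of 8.71, 7.79, 10.3 and 10.6 CPM in the same order of groups. The sum was highest in replicate 1 in both WT groups and in KO with DSS, as was H2-Ab1. In untreated KO the sum was highest in replicate 3 and H2-Ab1 in replicate 1. The T and NK cell sum and the monocyte sum were highest in replicate 1 of every group. The B cell sum was highest in replicate 2 of both WT groups, and the Kupffer cell sum in WT DSS replicate 2. All 6 dendritic cell markers had a positive log2 fold change of KO over WT with DSS (median 0.92). Of them 3 were under an unadjusted p of 0.05 in edgeR, where 7.18% of all genes were higher at that level. The same share of all genes stands beside each marker list below for KO over WT with DSS. In untreated livers 4 of 6 were positive (median 0.15, 0 under it), and none passed the threshold in either state. The 4 B cell markers summed to 4.24 to 4.63 CPM in untreated WT, 1.83 to 2.69 in WT with DSS, 1.61 to 2.08 in untreated KO and 1.89 to 7.89 in KO with DSS. All 4 had a negative log2 fold change of KO over WT in untreated livers (median −1.25, 3 under an unadjusted p of 0.05 in edgeR). The share of all genes lower at that level was not counted. With DSS all 4 were positive (median 1.06, 1 under it), and none passed the threshold in either state. The T and NK cell markers had a positive log2 fold change for 1 of 6 in untreated livers (median −0.27, 0 under an unadjusted p of 0.05). With DSS it was positive for 6 of 6 (median 1.32, 4 under it), none past the threshold. All 6 Kupffer cell markers had a negative log2 fold change of KO over WT in untreated livers (median −0.24, 0 under an unadjusted p of 0.05). With DSS all 6 were positive (median 0.42, 1 under it), none past the threshold. Of 3 monocyte markers, 1 was positive in untreated livers (median −0.32) and 3 with DSS (median 0.96, 2 under an unadjusted p of 0.05), again none past the threshold. The general leukocyte markers had a positive log2 fold change for 1 of 4 untreated (median −0.21) and for 4 of 4 with DSS (median 0.62, 2 under an unadjusted p of 0.05 in edgeR). The 4 markers of sinusoidal endothelium, the lining of the liver's blood spaces, summed to 261 to 317 CPM in untreated WT, 145 to 322 in WT with DSS, 245 to 280 in untreated KO and 240 to 366 in KO with DSS. All 4 were negative for KO over WT untreated (median −0.13) and positive with DSS (median 0.46, 2 under an unadjusted p of 0.05), none past the threshold. None of these markers was at 0 in all libraries. Their part in the class II values was not tested.

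As for class I, the class II interaction gave no call in edgeR (0 under an unadjusted p of 0.05) or in DESeq2. Its median was 0.45 on the log2 scale, with 6 of 8 positive (48.7% of all genes). The sign of this median depended on which library was left out, and its range is given at the end. H2-Ob had the largest interaction, 1.42 ± 0.77 (edgeR adjusted p = 0.372). The interaction median of the B cell markers was 2.39 (4 of 4 positive, 4 under an unadjusted p of 0.05 in edgeR). For T and NK cell markers it was 1.69 (6 of 6, 3 under it), and for dendritic cell markers 0.77 (5 of 6, 1 under it). Of all genes 8.83% were positive under that p. No such marker passed the threshold, and their part in the class II interaction was not tested.

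H2-Ke2, in the MHC region but with no part in antigen presentation, was flat, between 9.06 and 12.99 CPM in all 12 livers.

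Other genes of the pathways were taken from fixed lists. Of 11 tested genes of peptide supply and loading (13 listed), 2 rose with DSS in KO (4.57% of all genes did) and 1 in WT (0.453%), and none fell. Tapbpl (TAPBPR), a peptide editor of class I, rose in both genotypes: it was at 20.7, 20.6 and 17.7 CPM in untreated WT, 39.3, 31.6 and 32.0 in WT with DSS, 20.4, 21.3 and 21.5 in untreated KO and 41.7, 60.8 and 42.0 in KO with DSS. The treated and untreated libraries did not overlap in either genotype, and KO DSS replicate 2 stood above the other treated KO livers. Its log2 fold change was 0.80 ± 0.16 in WT (edgeR adjusted p = 0.0383) and 1.19 ± 0.16 in KO (adjusted p = 0.00182). Psme2, a subunit of the interferon-inducible proteasome activator, rose in KO, from 44.4, 43.6 and 41.4 CPM to 66.1, 86.4 and 71.3 (log2 fold change 0.79 ± 0.19, edgeR adjusted p = 0.0283).

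Of 6 tested class II processing genes (8 listed), 2 rose in KO with DSS (4.57% of all genes) and none in WT (0.453%). Ifi30, the thiol reductase that opens disulfide bonds of antigens in lysosomes, went from 19.8, 19.6 and 21.7 CPM to 40.0, 49.1 and 37.2 (log2 fold change 1.05 ± 0.23, edgeR adjusted p = 0.0177). Ctss, the protease that trims the invariant chain, went from 54.2, 41.3 and 43.3 to 194, 126 and 89.9 (1.56 ± 0.40, adjusted p = 0.0409).

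Of 15 tested regulators (16 listed), 4 rose in KO with DSS (4.57% of all genes) and none in WT (0.453%). Rfx5, which binds the X box of class II promoters, went from 6.66, 7.26 and 11.4 CPM to 20.3, 19.4 and 21.0 (log2 fold change 1.26 ± 0.20, edgeR adjusted p = 0.00499). Ifngr2, a subunit of the interferon gamma receptor, went from 21.2, 20.2 and 13.7 to 44.0, 42.8 and 33.7 (1.13 ± 0.19, adjusted p = 0.00599). The interferon regulatory factor Irf8 went from 10.8, 9.71 and 12.2 to 23.3, 20.5 and 22.2 (1.01 ± 0.22, adjusted p = 0.0170). Its relative Irf1 was at 34.9, 36.6 and 62.9 in untreated KO and at 85.5, 78.2 and 179 with DSS, where replicate 3 stands apart (log2 fold change 1.35 ± 0.36, edgeR adjusted p = 0.0469). Ifng itself reached at most 0.198 CPM. In none of the 3 lists did a gene pass in a comparison of KO with WT or in the interaction, and the same marker and sex-linked values stand beside these rises in KO.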

How the data were processed

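Liver RNA of 12 mice was sequenced as paired-end reads after rRNA depletion. Trimming was by fastp, alignment to mm9 by HISAT2 and counting by StringTie. The authors deposited estimated counts per gene, as whole numbers without normalization. Strand use and the treatment of reads with several matches are not given in the sources used here. Totals ran from 65879529 to 82850098 counts per library, above the number of sequenced fragments that the methods state, so a count is not 1 independent fragment. Groups came from the sample labels. Symbols (28677 of the 51609 rows) and coordinates were taken from GENCODE vM1 for mm9, and promoters from RefSeq (GRCm38.p6).

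Counts were tested in R 4.3.3 with edgeR 4.0.16 (filterByExpr, 17652 genes kept, TMM, robust quasi-likelihood F tests in 1 model of the 4 groups, Benjamini-Hochberg over all tested genes, threshold 0.05). The contrasts were DSS in each genotype, genotype in each treatment, and their interaction. DESeq2 1.42.0, which the authors name without a design formula, was an alternative. CPM are counts per TMM-scaled library size, and levels between genes are per kb of exon. Exact permutation tests used log2(CPM + 0.5), with 10 distinct splits. Marker lists were summed in CPM. Other alternatives were size factors of DESeq2 in edgeR, testing all rows with counts or those with at least 10 in each library, fits of 2 groups alone, a replicate block, a sex covariate, and leaving out each library, or the 2 WT libraries in which Stat3 goes against the label (added after seeing the data). Replicate numbers were not taken to pair mice, since 5 of 18 same-numbered pairs had a correlation of deviations over 0.1.

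The members and lists were chosen with earlier results of these data known. Members named with values in every library were those listed by role, those past the threshold, and up to 5 with a large fold change. H2-Bl, H2-M2 and the list genes past the threshold were added after their values were seen. On simulated counts for DSS in WT (17135 genes tested, 200 changed), 49% of 2-fold and 98% of 4-fold changes were called, and 3.92% of calls were false. Each simulated gene had the spread of the fitted trend, not its own, so these rates need not hold for genes that vary more than the trend. No libraries were duplicates.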

Additional observations from a re-analysis of the deposited data

How the results depend on the processing

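For DSS in WT, none was called by edgeR but 4 by DESeq2, and 0 to 2 when 1 library was left out (2 without WT DSS replicate 2, H2-T24 and Tap1). For DSS in KO, 3 were called, 6 by DESeq2, 5 with only the groups compared and 0 with a sex covariate (over all genes 1240, 2315, 1698 and 4, so the last count says nothing particular to these members), and 0 to 5 when 1 library was left out (0 without KO untreated replicate 2 or KO DSS replicate 2, 1 without KO untreated replicate 1, 5 without WT DSS replicate 1 or 2). For KO over WT with DSS, 1 class I member was called by DESeq2 and 0 to 3 class I members when 1 library was left out. DESeq2 called 1 class II member for KO over WT in untreated livers, and leaving out a library gave 0 to 1 with DSS. The median log2 fold change of class I for DSS in WT was 0.47 to 1.20 when 1 library was left out, and that of class II −0.82 to 0.85. For KO over WT the class II median was 0.68 to 1.88 untreated and 1.14 to 2.28 with DSS, and for the interaction −0.46 to 1.25. With the sex covariate the medians were 1.40 (class I, DSS in KO), 0.63 (class I, interaction), 1.26 (class II, DSS in KO), 2.19 (class II, KO over WT with DSS) and 1.32 (class II, interaction). Without both WT libraries with KO-like Stat3, an alternative added after seeing the data, 3 class I members were called for KO over WT with DSS, 3 class II members untreated and 4 with DSS, and the class II medians of KO over WT were 1.88 and 2.28. The cause of these shifts was not tested, other than that these 2 libraries held most of the highest WT class II values. With the replicate block, 1 call was lost, that of Tap2 in KO (log2 fold change 1.12, edgeR adjusted p = 0.0652), and the calls over all genes for DSS in KO went from 1240 to 1164, those for KO over WT untreated from 11 to 33 and those of the interaction from 72 to 128. Same-numbered pairs had correlations of deviations between −0.07 and 0.21, and 7 of 12 libraries correlated best with their own number. Size factors of DESeq2, and the stricter filter among the members it kept, changed no call. For H2-M2, H2-Bl, H2-Oa and the 4 untested members, depth limits what can be read.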
